A study of Mus musculus with 5 samples.

Results

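Pax3 and Pax7 encode a pair of closely related transcription factors of skeletal muscle precursors. Their RNA was measured here in material pulled down from mouse muscle stem cells with an antibody against Staufen1, which recognises double-stranded stretches of RNA. The rows were chosen by gene symbol alone: 2 of the 11194 genes in the deposited count table, Pax3 and Pax7, each present once. The 3 wild type libraries came from mice of genotype Stau+/+ and the 2 knockout libraries from mice of genotype Stau-/-. All 5 were immunoprecipitates from cells described as quiescent, with no treatment and no age in the labels, and whether each library of a group had its own animal is not stated in them. The p-values therefore measure the spread between these libraries, which may be technical. No input RNA was analysed here, so a count reflects both how much of a transcript the cells held and how much of it the antibody brought down. In bulk material of this kind, fewer cells of a type and less RNA per cell cannot be told apart either. The comparison asked which transcripts come down with Staufen1, with the knockout as the background.

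Both proteins carry a paired domain and a homeodomain, through which they bind DNA. In the embryo, Pax3 marks the progenitors of the somite that form muscle, including those that migrate into the limb. Pax7 marks the muscle stem cells (satellite cells) of the adult, which depend on it to persist, whereas Pax3 is kept in the satellite cells of only some adult muscles. Both factors act upstream of Myf5 and Myod1, which encode the basic helix-loop-helix factors that commit a cell to the muscle lineage.

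The libraries held between 3091302 counts (knockout 2) and 105473455 counts (wild type 1), a 34.1-fold range, and both knockout libraries were shallower than every wild type library. Levels are given as CPM, a gene's counts scaled to a common library total, with the totals adjusted by TMM, edgeR's trimmed mean of M-values. Stau1, the gene targeted in the knockout, ranged from 104 to 127 CPM under the wild type label and stood at 109 and 111 CPM under the knockout label (log2 fold change 0.08, SE 0.19, edgeR adjusted p = 0.847). The labels are therefore not checked by the RNA of the targeted gene, and every direction below rests on them. Over the whole table, 230 genes (2.05%) passed an edgeR adjusted p under 0.05, of which 118 (1.05%) were higher under the wild type label and 112 (1%) under the knockout label. The libraries of the groups did not overlap for 20.4% of genes in the direction of wild type and for 18.1% in the direction of knockout.

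In the deposited gene models (mm10), Pax7 lies on chromosome 4 from 139737062 to 139833528 on the minus strand, and Pax3 on chromosome 1 from 78101267 to 78197134, also on the minus strand. Each model is made of 9 exon blocks, with 5860 bases for Pax7 and 6187 for Pax3. Blocks 2, 3 and 4 from the 5′ end measured 236, 130 and 135 bases in both genes, and a later block measured 166 bases in both, so the paralogues share much of their exon layout. They differ in an internal block as well as at the 3′ end. The last block of Pax7, 3841 bases, makes up 65.5% of its length, while Pax3 has an internal block of 2321 bases (37.5%) besides a last block of 2308 bases (37.3%). Counts were summed over all blocks of a gene, so isoforms of either gene cannot be told apart. A noncoding RNA, Gm46873, overlaps an exon block of Pax7 in RefSeq, and the strand setting of the counting is not given in the sources used here, so the pair may share reads. No RefSeq gene other than Pax3 itself overlaps the Pax3 model.

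Pax7 was abundant in all 5 libraries, and its difference between the genotypes was small and did not pass the test. It had 211, 263 and 241 CPM in wild type 1 to 3 and 252 and 181 CPM in knockout 1 and 2. The groups overlapped: knockout 1 lay between wild type 2 and wild type 3, and knockout 2 was the lowest of the 5. These levels rest on 21844, 8655 and 17142 counts in wild type and on 2403 and 568 counts in knockout. From high to low the order was wild type 2, knockout 1, wild type 3, wild type 1 and knockout 2. By the exact binomial 95% intervals, which cover counting error only, knockout 1 (242 to 262 CPM) could not be told from wild type 2 (258 to 269 CPM) or from wild type 3 (238 to 245 CPM), while knockout 2 (166 to 196 CPM) lay below wild type 1 (209 to 214 CPM). Wild type averaged 239 ± 26.1 CPM (SD, n = 3) and knockout 216 ± 50.2 CPM (SD, n = 2).

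The log2 fold change of Pax7, wild type over knockout, was 0.14 (SE 0.20), and it did not pass the edgeR quasi-likelihood test (adjusted p = 0.748). Its 95% interval, -0.29 to 0.57, corresponds to a ratio between 0.818 and 1.48, so that a difference of the size seen for Myod1 below, 2.14-fold, lies outside it. Of 587 genes whose average log2 CPM was within 0.5 of that of Pax7, 76.5% had a larger absolute log2 fold change. The direction of the small difference depended on single libraries, at 0.40 without knockout 1 and -0.077 without knockout 2. Pax7 varied between libraries by more than counting error, with a coefficient of variation of 10.9% in wild type against 0.856% expected from counting, and of 23.2% in knockout against 3.30%. Knockout 1 had 1.39 times the Pax7 level of knockout 2 (95% counting interval 1.27 to 1.53). The biological coefficient of variation that edgeR fitted for Pax7 was 16.4%, and the median of those 587 genes was 16.0%. The fit draws each gene towards genes of like abundance, so their closeness is partly built in.

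**Figure D1:**
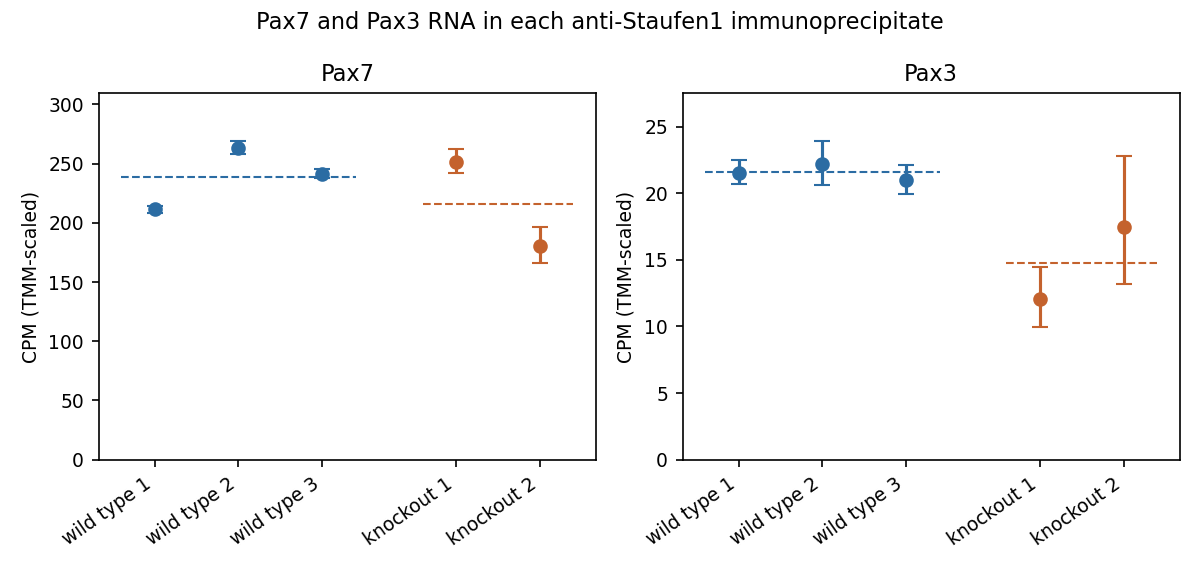
CPM of Pax7 and of Pax3 in each of the 5 immunoprecipitates, on linear axes that start at 0. Points are libraries, bars are exact binomial 95% intervals (counting error only) and dashed lines are group means. Pax7 in knockout 1 sits among the wild type libraries, whereas Pax3 is lower in both knockout libraries than in the 3 wild type libraries. Such a separation towards wild type held for 20.4% of all genes.

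Pax3 was far scarcer than Pax7, and its level was lower in both libraries labelled knockout, although the difference did not pass the test. It had 21.6, 22.2 and 21.0 CPM in wild type 1 to 3 and 12.0 and 17.5 CPM in knockout 1 and 2. The groups did not overlap, as held in this direction for 20.4% of all genes, and knockout 1 was the lowest library. Wild type averaged 21.6 ± 0.621 CPM (SD, n = 3) and knockout 14.8 ± 3.86 CPM (SD, n = 2), a fitted ratio of 1.49. Its log2 fold change came to 0.57 (SE 0.31, edgeR adjusted p = 0.315, unadjusted p = 0.0821), with a 95% interval of -0.08 to 1.23 that runs from a ratio of 0.944 to one of 2.34. No difference and a 2-fold difference both lie inside that interval. Of 2222 genes within 0.5 log2 CPM of Pax3, 27.7% had a larger absolute log2 fold change.

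Depth limits what can be said of Pax3 in the knockout. Its values there rest on 115 and 55 counts, against 2228, 731 and 1490 counts in wild type. The exact binomial 95% interval was 9.94 to 14.5 CPM in knockout 1, below the intervals of all 3 wild type libraries, of which the lowest bound was 19.9 CPM. In knockout 2 it was 13.2 to 22.8 CPM, which takes in the wild type values. The spread of Pax3 over the wild type libraries, a coefficient of variation of 2.88%, was as small as counting alone gives (2.88%). In knockout it was 26.1% against 11.6% from counting, and knockout 2 had 1.45 times the level of knockout 1 (95% counting interval 1.03 to 2.02). Pax3 thus was higher in knockout 2 than in knockout 1, the opposite of Pax7. The log2 fold change was 0.30 without knockout 1 and 0.84 without knockout 2, and neither passed the edgeR test (adjusted p = 0.654 and adjusted p = 0.225).

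**Figure D2:**
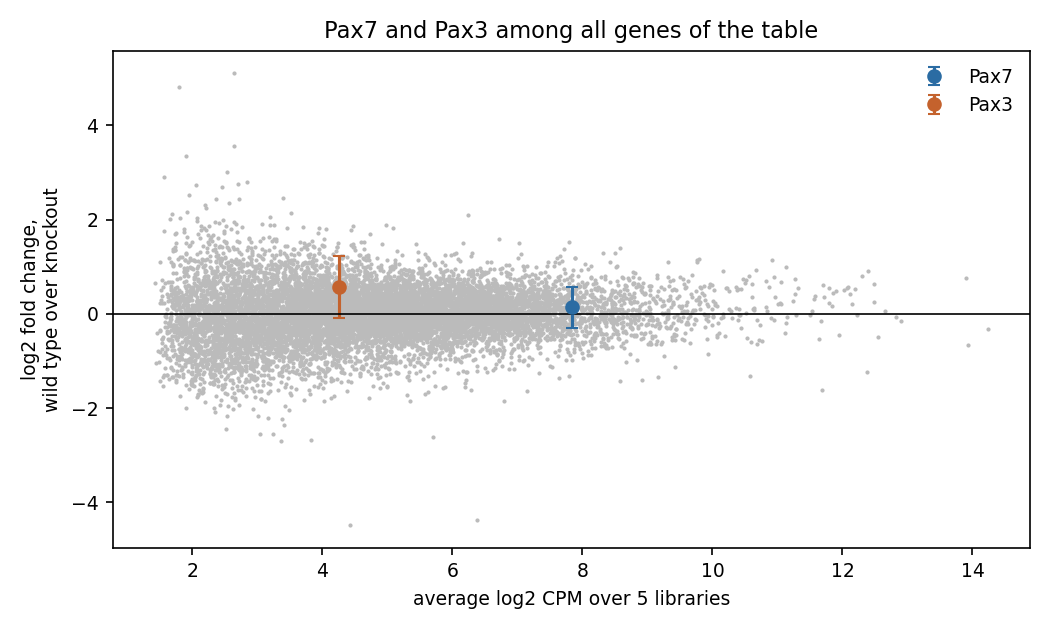
Log2 fold change (wild type over knockout) against the average log2 CPM of each gene, for all 11194 genes in grey. Pax7 (0.14) and Pax3 (0.57) are drawn with their 95% intervals from the edgeR fit, and both intervals include 0.

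**Figure D3:**
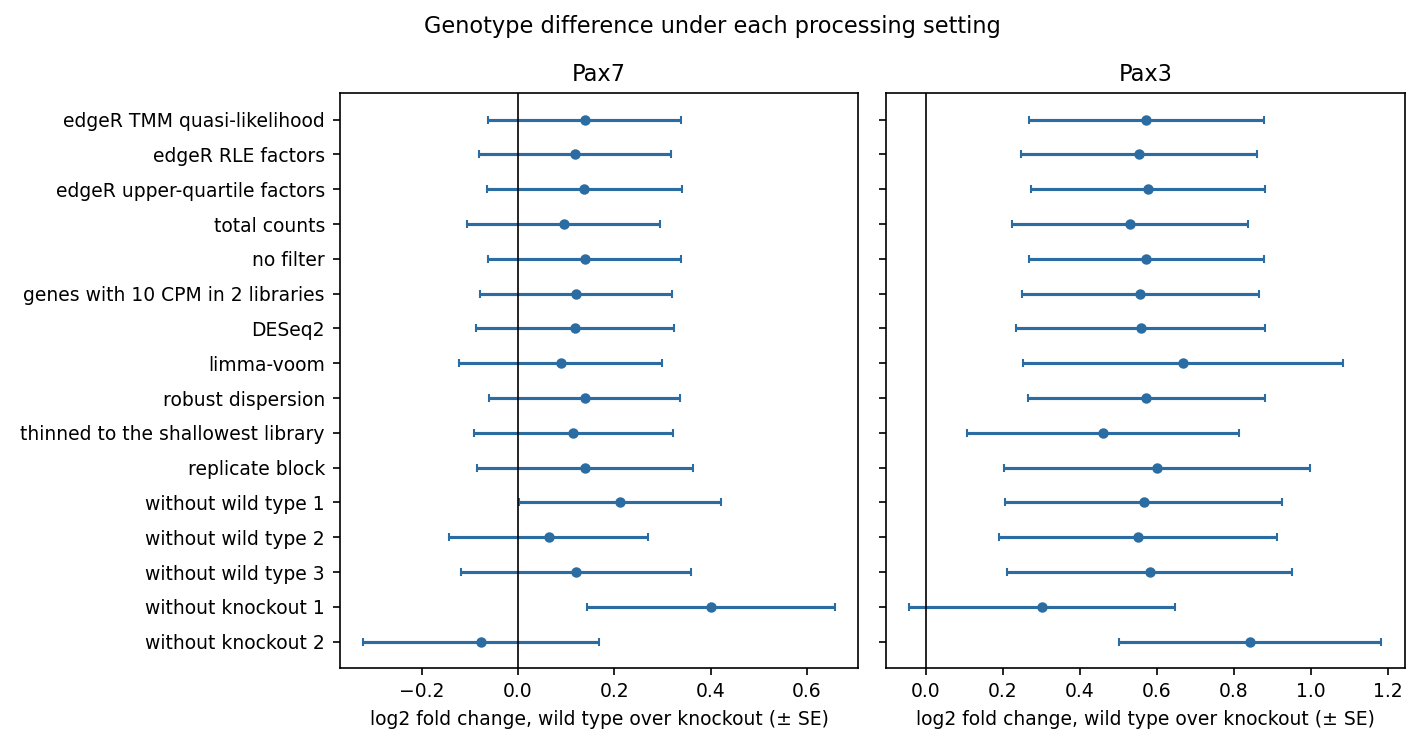
Log2 fold change (wild type over knockout) of Pax7 and Pax3 under the main setting, 10 other settings and with each library left out; bars are ± SE. Pax7 runs from -0.077 without knockout 2 to 0.40 without knockout 1, and Pax3 from 0.30 without knockout 1 to 0.84 without knockout 2.

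Per kilobase of gene model, Pax7 stood at 36.1, 44.9 and 41.2 CPM per kilobase in wild type 1 to 3 and at 42.9 and 30.8 in knockout 1 and 2. That placed it above 83.0% to 88.0% of the genes in the table, depending on the library. Pax3 stood at 3.48, 3.59 and 3.39 CPM per kilobase in wild type and at 1.95 and 2.83 in knockout, above 17.3% to 32.3% of the genes. Weakly expressed genes had been removed from the table before deposit, so these shares are among expressed genes. The division is by all exon blocks of a model, including the internal block of 2321 bases that makes up 37.5% of Pax3. How the reads were spread over the blocks was not examined. The level of one gene per kilobase relative to another is therefore approximate, while a difference in their log2 ratio between the groups does not depend on length. Within a library, Pax7 exceeded Pax3 per kilobase by 10.3, 12.5 and 12.1 times in wild type 1 to 3, and by 22.0 and 10.8 times in knockout 1 and 2. Knockout 2 fell within the wild type range and knockout 1 lay far above it. The log2 ratio of Pax3 to Pax7 averaged -3.54 ± 0.15 (SD, n = 3) in wild type and -3.95 ± 0.72 (SD, n = 2) in knockout. The difference of 0.41 did not pass a two-sided exact permutation test over libraries (p = 0.6, adjusted p = 0.75 over 5 ratios). With 3 against 2 libraries such an exact test has 10 assignments and cannot go below p = 0.2. Without knockout 1 the difference was -0.10, and without knockout 2 it was 0.92, so its sign rests on knockout 1.

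Ratios to the commitment factors within a library do not depend on how libraries are scaled, but their size depends on the gene lengths used. Myod1 encodes MyoD, the transcript that the series title singles out, and its level per kilobase was 14.3, 9.61 and 8.79 times that of Pax7 in wild type 1 to 3 and 3.77 and 7.99 times in knockout 1 and 2. Every wild type ratio was above both knockout ratios. The mean log2 ratio of Myod1 to Pax7 was higher by 0.96 in wild type, at p = 0.2 in the exact permutation test, the smallest p it allows (adjusted p = 0.333). That difference was 0.41 without knockout 1 and 1.50 without knockout 2. Myod1 alone had 809 ± 141 (SD, n = 3) against 379 ± 111 CPM (SD, n = 2) and was called higher under the wild type label (log2 fold change 1.10, edgeR adjusted p = 0.0252).

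Myf5, the earliest of the commitment factors in the embryo and a marker of most satellite cells, was below Pax7 per kilobase in all 5 libraries. Its ratio to Pax7 was 0.624, 0.595 and 0.718 in wild type 1 to 3 and 0.492 and 0.393 in knockout 1 and 2, again without overlap, with a mean log2 difference of 0.55 (exact permutation p = 0.2, adjusted p = 0.333). Against Pax3, Myod1 was higher by 148, 120 and 107 times in wild type and by 82.8 and 86.4 times in knockout. The groups did not overlap, and the log2 difference was 0.55 (exact permutation p = 0.2, adjusted p = 0.333). The ratio of Myf5 to Pax3 was 6.46, 7.43 and 8.72 in wild type 1 to 3, inside the span of the knockout values, 10.8 and 4.25. Its log2 difference of 0.14 (exact permutation p = 0.8, adjusted p = 0.8) was 0.81 without knockout 1 and -0.53 without knockout 2. The order per kilobase, Myod1 over Pax7 over Myf5 over Pax3, was the same in each of the 5 libraries.

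**Figure D4:**
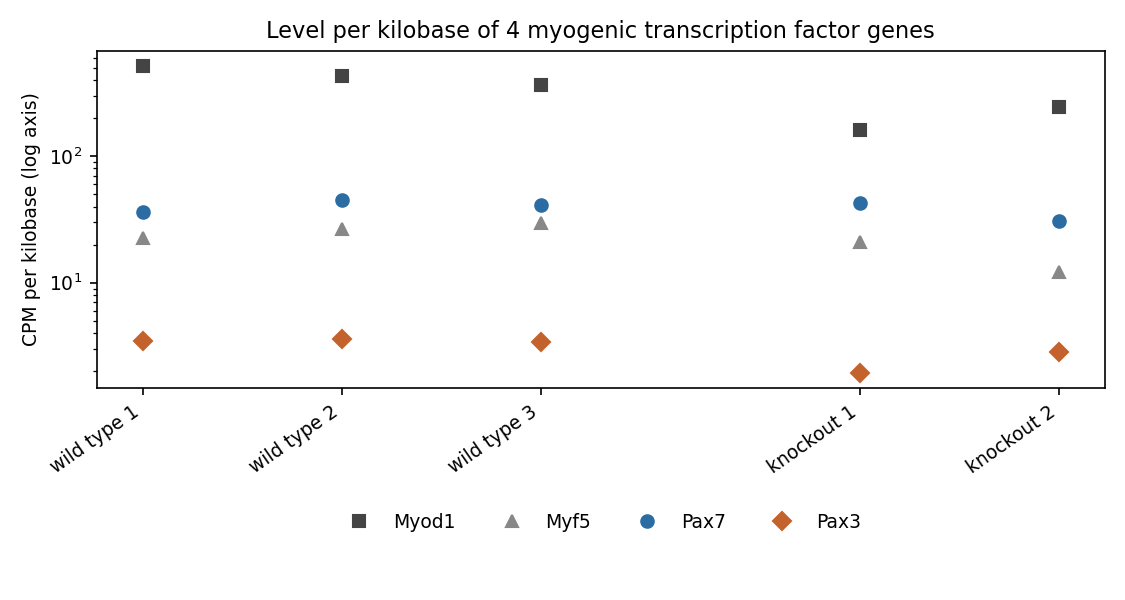
CPM per kilobase of gene model (log axis) for Myod1, Myf5, Pax7 and Pax3 in each library; points are single libraries. Pax7 is at 30.8 to 44.9 and Pax3 at 1.95 to 3.59, and the gap between Myod1 and Pax7 is narrowest in knockout 1.

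The genes on which Pax3 and Pax7 act were examined next. Of a list of 12, 11 had values here. Of the 11, 4 were higher under the wild type label, 0 were lower and 7 did not pass, against 1.05% of all genes called higher there; the list was drawn up with earlier results of these data known. The median log2 fold change was 0.64, against 0.00 over all genes. Spry1, a brake on receptor tyrosine kinase signalling needed for satellite cells to return to quiescence, averaged 419 ± 83.9 CPM (SD, n = 3) in wild type and 169 ± 56.0 CPM (SD, n = 2) in knockout (log2 fold change 1.30, SE 0.24, edgeR adjusted p = 0.0165). Itm2a, a membrane protein gene activated by Pax3 in muscle progenitors, had 340, 238 and 330 CPM in wild type 1 to 3 and 124 and 141 CPM in knockout 1 and 2. All its wild type values were above both knockout values, the log2 fold change being 1.19 (edgeR adjusted p = 0.0152). Fgfr4, a fibroblast growth factor receptor and direct Pax3 target, had 468 ± 16.8 against 270 ± 38.5 CPM (log2 fold change 0.79, edgeR adjusted p = 0.0425), and Myod1 was the other called gene.

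Among the 7 target genes that did not pass, Myf5 had a log2 fold change of 0.64 (edgeR adjusted p = 0.196), and Dmrt2, a Pax3 target of the somite, one of 0.90 (adjusted p = 0.246). Cxcr4, a chemokine receptor of migrating progenitors, stood at 0.53 (adjusted p = 0.431). Id3, an inhibitor of helix-loop-helix factors that Pax7 activates, was abundant at 2596 ± 25.4 against 2147 ± 133 CPM (0.27, adjusted p = 0.388). Met, the receptor of hepatocyte growth factor, which limb progenitors need in order to migrate, was at 44.9 ± 6.15 against 42.7 ± 4.17 CPM (0.07, adjusted p = 0.903). Its exon blocks overlap the noncoding RNA Gm52893, which may share its reads. Mitf and Sox10, which work with Pax3 in melanocytes and neural crest, were at 0.34 (adjusted p = 0.747) and -1.03 (adjusted p = 0.191). Met and Mitf, like Pax7, overlapped between the groups. The 4 calls depended on single libraries, as leaving out wild type 3 left 0 of the 4, leaving out wild type 1 or knockout 1 left 1, and leaving out knockout 2 left 2. None was called by limma-voom, where the adjusted p ran from 0.0755 to 0.121.

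Genes whose products work with Pax3 or Pax7 or modify them did not pass the edgeR test in either direction. All 15 of the list were measured and 0 were called by edgeR, while 2 had an unadjusted p under 0.05 and DESeq2 called 2 higher under the wild type label and limma-voom 0. The median log2 fold change was -0.04. Carm1, an arginine methyltransferase that methylates Pax7 and so allows it to recruit a histone methyltransferase complex to Myf5, had 20.4 ± 4.01 (SD, n = 3) against 9.65 ± 1.20 CPM (SD, n = 2), with a log2 fold change of 1.09 (edgeR adjusted p = 0.0929). Carm1 overlaps Yipf2, which may share its reads. Nedd4, a ubiquitin ligase that targets Pax7, had 391 ± 68.3 against 224 ± 14.7 CPM (0.80, adjusted p = 0.0541). Paxbp1, an adaptor that links Pax3 and Pax7 to histone methylation, went the other way, with 69.8 ± 24.1 against 100.2 ± 9.97 CPM (-0.52, adjusted p = 0.270). Members of the methyltransferase complex stood at 0.29 for Kmt2d, -0.07 for Ash2l, -0.39 for Wdr5 and -0.56 for Rbbp5. The subunits of casein kinase II, which phosphorylates Pax3 and Pax7, stood at -0.16 for Csnk2a1, -0.03 for Csnk2a2 and 0.32 for Csnk2b. Exon blocks of Csnk2b overlap Ly6g5b and Gpank1, and those of Paxbp1 the noncoding RNA 4930404I05Rik, so reads may be shared there too.

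**Figure D5:**
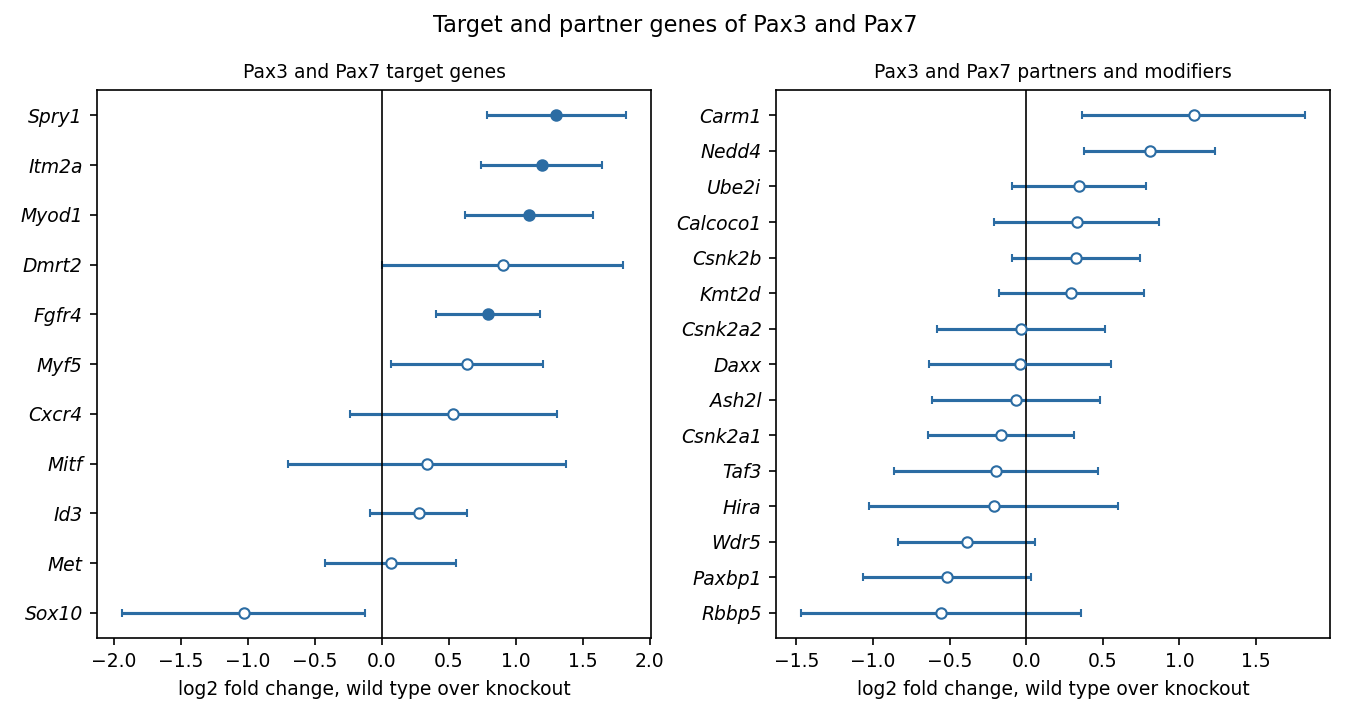
Log2 fold change (wild type over knockout) with 95% intervals from the edgeR fit for the 11 measured target genes and the 15 partners and modifiers of Pax3 and Pax7. Filled points passed an adjusted p under 0.05 and open points did not. The 4 filled points, Spry1, Itm2a, Myod1 and Fgfr4, are all target genes.

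Set against the summed level of other satellite cell markers, Pax7 was higher in knockout 1 than in the other libraries. Of 17 further genes that mark satellite cells, all measured, 2 were higher under the wild type label, against 1.05% of all genes, 0 were lower and 15 did not pass, and the median log2 fold change was 0.50. They were the syndecan gene Sdc4 (log2 fold change 0.94, edgeR adjusted p = 0.0251) and Msc, which encodes the repressor musculin (1.00, adjusted p = 0.0350). Neither was called by limma-voom, nor by edgeR when wild type 1, wild type 3, knockout 1 or knockout 2 was left out. Megf10, an epidermal growth factor-like repeat receptor gene, stood at 0.86 (adjusted p = 0.0533). For 12 of the 17 the wild type libraries lay above the knockout libraries, against 20.4% of all genes. Their summed level was 7410, 7032 and 7278 CPM in wild type 1 to 3 and 4875 and 4987 CPM in knockout 1 and 2. Abundant genes weigh most in it, and Sdc4 alone had 2314, 1757 and 1976 CPM in wild type and 971 and 1133 CPM in knockout. Set against that sum, Pax7 came to 2.85%, 3.74% and 3.32% in wild type and to 5.16% and 3.62% in knockout, so that knockout 2 lay inside the wild type range and knockout 1 above it. Pax3 came to 0.291%, 0.316% and 0.288% in wild type and to 0.247% and 0.351% in knockout, one value below and one above the wild type range.

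Of 11 genes of myogenic commitment and differentiation, 5 had values and 0 were called by edgeR, DESeq2 or limma-voom, although 3 had an unadjusted p under 0.05 in the edgeR test. The median log2 fold change was 0.03. Cdkn1c, a cell cycle inhibitor gene, stood at 0.67 (adjusted p = 0.102). Myog, which encodes the differentiation factor myogenin, stood at 1.19 (adjusted p = 0.165) and had 6.39 and 27.4 CPM in knockout 1 and 2 against 30.0 to 45.7 CPM in wild type. Ckm, the creatine kinase of muscle fibres, had 40.9 to 72.9 CPM in wild type, 31.4 CPM in knockout 1 and 228 CPM in knockout 2, and stood at -1.21 (adjusted p = 0.201). Knockout 1 was the lowest of the 5 libraries for Ckm and knockout 2 the highest.

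Transcripts of some other cell types moved with genotype or with single libraries. The summed level of 10 endothelial markers, all measured, was 1196 to 1608 CPM in wild type and 2588 to 2819 CPM in knockout, and edgeR called 5 higher under the knockout label, against 1% of all genes, DESeq2 8 and limma-voom 1. Of 12 Schwann cell, neural crest and melanocyte markers 6 had values, with sums of 153 to 190 CPM against 294 to 344 CPM, and Mbp, a myelin gene, was called higher in knockout. The 10 muscle fibre markers, of which 7 had an unadjusted p under 0.05 and 0 were called by edgeR or DESeq2, summed to 778 to 921 CPM in wild type and to 628 and 2974 CPM in knockout 1 and 2. The 10 fibro-adipogenic markers summed to 823 to 1345 CPM in wild type and to 979 and 994 CPM in knockout. Only Ly6a was called by edgeR, towards the knockout label, whereas DESeq2 called 1 towards each label. Their median log2 fold change was 0.36, with 6 of the 10 above 0 and 4 below. Of 10 macrophage markers 8 had values, with sums of 246 to 381 CPM against 386 and 370 CPM. EdgeR called 0 of them. Higher in wild type were the 1 with an unadjusted edgeR p under 0.05 and the 1 called by DESeq2. Of the 8, 4 had a log2 fold change above 0 and 4 below. No measured marker of these lists had a count of 0 in any library. The part of these other transcripts in the Pax3 and Pax7 values was not tested.

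Pax3 and Pax7 were not among each other's closest genes in their pattern over the libraries. The root mean square difference of their log2 CPM, each centred over the 5 libraries, was 0.39. Of 10564 named genes, 5840 were as close to Pax7 as Pax3 was, and 4183 were as close to Pax3 as Pax7 was. The closest to Pax7 were Dync2h1, the heavy chain of the dynein of cilia (0.03), Pik3r1, a regulatory subunit of phosphoinositide 3-kinase (0.03), and Ank3, which encodes ankyrin-G (0.04). Those closest to Pax3 were Scmh1, a Polycomb group gene (0.03), Foxo3, a forkhead transcription factor gene (0.05), and Zc3h12c, a CCCH zinc finger gene (0.05). With 5 libraries many genes come this close, and 74 lay within 0.1 of Pax7 and 35 within 0.1 of Pax3.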

How the data were processed

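RNA recovered with an anti-Staufen1 antibody was sequenced in 5 libraries as paired 101 bp reads after oligo(dT)-primed amplification, per the labels' protocols. The values that the authors deposited are raw counts, whole numbers for each gene. Per the submitters' processing notes, the tools were Trim Galore, STAR, featureCounts (Subread) and edgeR, and the genome was mm10; their versions and the annotation are not stated. A gene length in bases, the sum of the exon blocks, is deposited beside the counts.

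All 11194 genes were fitted in R 4.3.3 with edgeR 4.0.16: filterByExpr (which removed none), TMM and the two-sided quasi-likelihood test of genotype, with Benjamini-Hochberg adjustment. The fit was tested on simulated data. Intervals of fold changes use the 14.0 degrees of freedom of that test. Ratios between genes used counts plus 0.5 per kilobase and exact permutation tests (SciPy 1.17.1). Alternatives were other scaling factors, filters and dispersions, DESeq2 1.42.0, limma-voom (limma 3.58.1), thinning, a replicate block and leaving out each library.

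The members, the lists and the rule for named genes were chosen with earlier results of these data known. The rule names Pax3, Pax7 and Stau1, any target or partner gene (1 partner is not reported here), the 3 genes of smallest p in the satellite cell and commitment lists, and the 3 genes closest to each member. Overlapping genes were looked up in RefSeq (GRCm38.p6).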

Additional observations from a re-analysis of the deposited data

How the results depend on the processing

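Neither Pax7 nor Pax3 passed the test under any of the 15 alternatives (adjusted p from 0.400 to 0.907 and from 0.225 to 0.654). The Pax7 log2 fold change ran from 0.09 to 0.14 over the 10 alternatives with all libraries and from -0.077 (without knockout 2) to 0.40 with libraries left out, and that of Pax3 from 0.46 to 0.67 and from 0.30 to 0.84. The alternative without a filter repeats the main fit, because the main filter removed no gene. The replicate numbers were not shown to pair the libraries. Deviations from the group means correlated at 0.05 between the libraries numbered 1 and 0.04 between those numbered 2 across genes. With 2 knockout libraries, the deviations in knockout 1 mirror those in knockout 2, so this check is weak. Wild type 3 has no knockout partner in a replicate block. With it left out and no block, 11 genes were called towards wild type and 23 towards knockout. With the replicate number as a block, Pax7 stood at 0.14 and Pax3 at 0.60. Over all genes 288 were then called towards wild type and 324 towards knockout. Those counts were 433 and 457 with DESeq2 and 8 and 14 with limma-voom, and ran from 11 to 176 and from 23 to 172 with libraries left out. The target gene count of 4 was 0 with limma-voom and ran from 0 to 4 with libraries left out. The satellite cell count of 2 was 6 with DESeq2, 4 with robust dispersions and 0 with limma-voom, and ran from 0 to 4 with libraries left out. These list counts under alternatives were chosen after seeing the data. The log2 difference in the ratio of Pax3 to Pax7 ran from -0.10 to 0.92 with libraries left out, that of Myf5 to Pax3 from -0.53 to 0.81, and those of Myod1 to Pax7, Myf5 to Pax7 and Myod1 to Pax3 stayed positive under all 8 alternatives of each, from 0.39 to 1.50. Leaving out the division by length cannot change such a difference, so that alternative only repeats the main value. With the block, over the libraries numbered 1 and 2, the 5 ratio differences were 0.44 for Pax3 to Pax7, 1.09 for Myod1 to Pax7, 0.47 for Myf5 to Pax7, 0.65 for Myod1 to Pax3 and 0.03 for Myf5 to Pax3. Where a library left out changed a value, the cause was not tested. Depth limits the Pax3 values in knockout, which rest on 170 counts over both libraries.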

Other observations

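Pax5, a paired box gene best known from B lymphocytes, was the one other Pax gene with a row in the table, and was looked at after its values were seen. It had 3.28, 3.92 and 3.51 CPM in wild type 1 to 3 and 4.50 and 6.68 CPM in knockout 1 and 2, so that the knockout libraries lay above the wild type libraries, the opposite of Pax3. The difference did not pass the test (log2 fold change -0.62, SE 0.51, edgeR adjusted p = 0.528), and the knockout values rest on 43 and 21 counts. The noncoding RNAs Gm12462 and 5730488B01Rik overlap exon blocks of Pax5, so its reads may be shared with them.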
